A study of Mus musculus with 6 samples.

Results

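The 8 genes described here, Ctsk, Atp6v0d2, Acp5, Nfatc1, Dcstamp, Ocstamp, Oscar and Calcr, are known for osteoclasts and multinucleated macrophages. They were chosen by what they are known to do, with values of the authors' comparison of the ages in view that are not used here, and found by symbol in the authors' deposited table of 33924 genes. Under their current symbols 6 were listed, and 2 were listed under older symbols, Dcstamp as Tm7sf4 and Ocstamp as 4833422F24Rik. The tissue was RPE/choroid, the retinal pigment epithelium (RPE) scraped off the sclera together with the vessel layer beneath it, from male wild-type C57BL/6J mice as the labels give them, with both eyes in a sample. There were 3 young mice, labelled 1 to 2 months old, and 3 aged mice, which the titles call 20 to 24 and the age field 22 to 24 months old, and no group carried a transgene or a treatment. The study's methods give a slightly older young group and mice of both sexes. RNA was depleted of ribosomal RNA, selected for poly(A) tails and sequenced as paired ends.

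The study compared young with aged RPE/choroid. In the deposited table the only measurement that is not the authors' own comparison of the ages is the mean normalized count of each gene, averaged by the authors over all 6 libraries of both ages. The levels below are therefore those of young and aged RPE/choroid together. They have no SD between mice, and no difference between the ages was computed for any of the 8 genes. In a bulk sample fewer cells of a type and less RNA per cell cannot be told apart.

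Osteoclasts are giant cells formed from the monocyte and macrophage lineage when precursors fuse, and they dissolve bone by pumping acid and releasing proteases onto it. CSF1 keeps the precursors alive through its receptor, RANKL signals through RANK, and receptors coupled to ITAM adaptors add a calcium signal that turns on the transcription factor NFATc1, which acts on the genes for fusion and resorption. Macrophages outside bone can fuse as well and use several of the same genes. Lysosomal acid, acid phosphatases and cathepsins also serve digestion inside phagocytic cells, of which the RPE is one.

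The genes of acid and matrix breakdown were the abundant ones, and the fusion proteins and receptors were scarce. Ctsk, the cysteine protease cathepsin K that cuts collagen, had a mean normalized count of 4494, followed by Atp6v0d2 with 1712, Acp5 with 906 and Nfatc1 with 364. Dcstamp had a mean normalized count of 36.7, Ocstamp 11.8, Calcr 11.03 and Oscar 5.71. Of the 8 genes, 7 reached a mean of 10 and none was listed at 0. Of every 1000000 in the summed means of all genes they held 185 together, and Ctsk alone held 110.1. Because longer transcripts give more reads, genes were compared only after the mean was divided by the length of the longest annotated transcript. This takes the deposited means as counts not yet corrected for length, which was not tested. Per kb the levels were 2972 for Ctsk, 674 for Atp6v0d2, 626 for Acp5, 75.8 for Nfatc1, 18.4 for Dcstamp, 3.23 for Ocstamp, 3.12 for Oscar and 2.93 for Calcr. The median over the 24088 genes with a mean above 0 and a known length was 90.8 per kb, and 3 of the 8 genes, those of acid and matrix breakdown, lay above it.

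**Figure D1:**
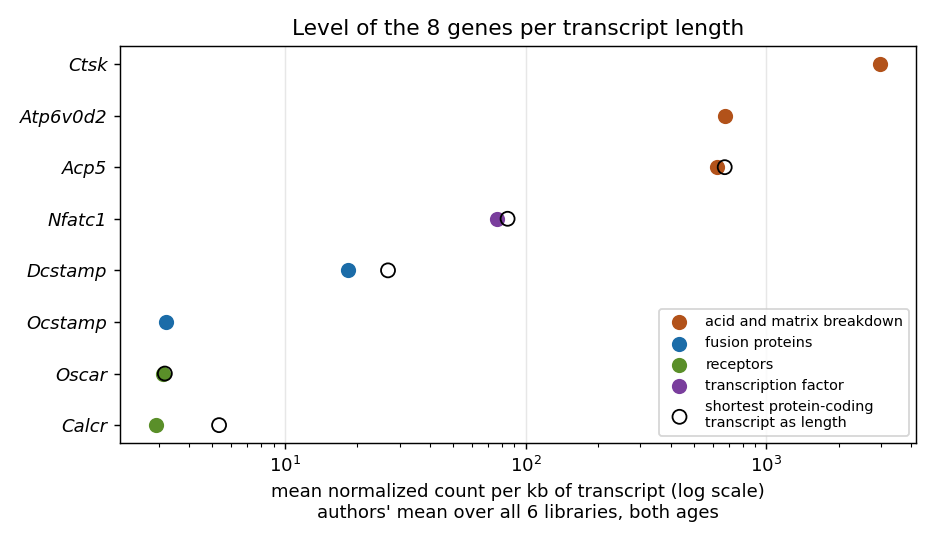
The x axis gives the mean normalized count per kb of transcript on a log scale, as the authors' mean over the 6 libraries of both ages, and each row is 1 gene, with filled points coloured by role for the longest transcript and open circles for the shortest protein-coding transcript where it differs. The 3 genes of acid and matrix breakdown lie at 626 or more, and Ocstamp, Oscar and Calcr lie between 2.93 and 3.23 with the longest transcript.

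Neighbours in this order were not equally far apart. Ctsk stood 4.41 times above Atp6v0d2, whereas Atp6v0d2 stood 1.08 times above Acp5. Acp5 stood 8.26 times above Nfatc1, Nfatc1 4.12 times above Dcstamp and Dcstamp 5.70 times above Ocstamp. Ocstamp, Oscar and Calcr differed by factors of 1.03 and 1.07. Whether any neighbours differ beyond the spread between mice cannot be said from a pooled mean. The order of the last 3 genes depended on the scale, as Calcr stood above Oscar by mean normalized count and above both Ocstamp and Oscar per kb of the shortest protein-coding transcript, where its level was 5.34.

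**Figure D2:**
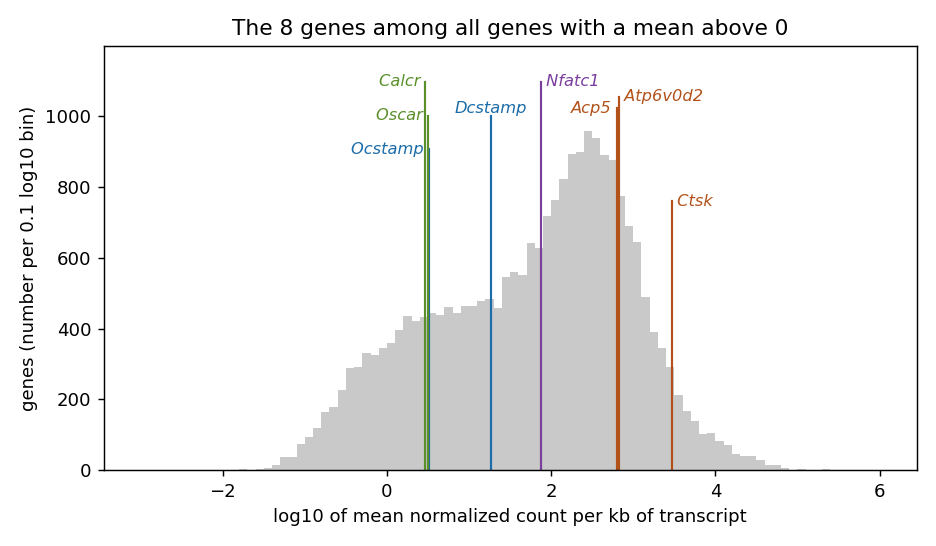
Grey bars count genes, out of 24088, by the log10 of the mean normalized count per kb of transcript, and each vertical line is 1 of the 8 genes, coloured by role. Ctsk lies at percentile 95.2 and Calcr at percentile 18.4 of these genes.

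Ctsk (ENSMUSG00000028111) spans 95499256 to 95509362 of chromosome 3 in GRCm38, plus strand, and has 8 exons in a transcript of 1512 bases. Its level per kb was at percentile 95.2 of all genes. Among 13 cathepsins, the lysosomal proteases, it took place 7 from the top. Above it were Ctsd, the main aspartic protease of lysosomes, with 99016 per kb, Ctss with 36722, Ctsb with 14402, Ctsz with 12986, Ctsl with 6663 and Ctsf with 3502. Ctsd was thus 33.3 times and Ctss 12.4 times as abundant per kb as Ctsk. Ctse, the lowest of the list, had 4.15 per kb.

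Atp6v0d2 encodes the d2 form of a subunit of the V-ATPase, the pump that acidifies lysosomes and the space under an osteoclast. The gene (ENSMUSG00000028238) spans 19876841 to 19922605 of chromosome 4, minus strand, with 8 exons. Its level per kb was at percentile 81.5 of all genes and took place 7 among 10 subunits of the membrane part of the pump. The d1 form, Atp6v0d1, which is made in most tissues, had 2902 per kb, 4.30 times the 674 per kb of Atp6v0d2. Atp6v0b was the highest with 10695 per kb, and Tcirg1, the a3 subunit that osteoclasts place in their plasma membrane, had 729 per kb. Atp6v0a4, a form known from the kidney, was the lowest with 10.2 per kb.

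The d forms could be separated by sequence. The coding sequences of Atp6v0d2 and Atp6v0d1 were identical at 65.9% of 1050 aligned bases, and the longest identical stretch was 17 bases. In the longest Atp6v0d2 transcript 99.6% of words of 31 bases occurred in no other annotated gene.

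Acp5, tartrate-resistant acid phosphatase, is the enzyme stained to identify osteoclasts and is also made by activated macrophages. The gene (ENSMUSG00000001348) spans 22126727 to 22135711 of chromosome 9, minus strand. Its level per kb was at percentile 80.3 of all genes and took place 2 among 5 acid phosphatases. Acp1, a cytosolic phosphatase, had 1157 per kb, 1.85 times the level of Acp5. Acp2, the lysosomal acid phosphatase of most cells, had 599 per kb, which is 0.956 times the level of Acp5, and Acp6 and Acpp had 172 and 60.8 per kb. The closeness of Acp2 and Acp5 rests on the lengths used. By mean normalized count Acp2 had 2787 and Acp5 906, with longest transcripts of 4656 and 1447 bases.

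Acp5 is the gene among the 8 whose coding sequence is shared with a gene on the opposite strand. The noncoding gene 6530413G14Rik runs from 22117328 to 22137756 of chromosome 9, plus strand, across the whole of Acp5, and 92.0% of the 31-base words of the longest Acp5 transcript were found in no other gene. The longest shared stretch, 143 bases in the coding part of the longest Acp5 transcript from base 920 to base 1062, is shown because reads from it fit both genes unless strand is used. The libraries were stranded, and the sources used here do not state whether the counting used strand. Under that name 6530413G14Rik was not among the genes listed by the authors.

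Acp5: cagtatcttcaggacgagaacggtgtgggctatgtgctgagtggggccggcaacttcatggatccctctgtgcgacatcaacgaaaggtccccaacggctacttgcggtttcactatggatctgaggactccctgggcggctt

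Nfatc1 encodes the calcium-driven transcription factor that commands osteoclast formation and also acts in lymphocytes and endothelium. The gene (ENSMUSG00000033016) spans 80606205 to 80713071 of chromosome 18, minus strand. Its level of 75.8 per kb was at percentile 47.7 of all genes, below their median. Nfatc4, Nfatc3 and Nfat5 were 3.03, 2.36 and 1.79 times as abundant per kb, and Nfatc2 was less abundant with 57.1. The 6 genes of calcineurin, the phosphatase that activates NFAT proteins, and of its regulators lay between 653 per kb for Rcan2 and 1552 per kb for Ppp3r1. Of the 13 other transcription factors of osteoclast formation, 8 lay above the median of all genes. Mitf, which also sets the identity of RPE cells and melanocytes, was the highest with 1157 per kb, 15.3 times the level of Nfatc1, and Fosl1 was the lowest with 0.621. Spi1, which encodes PU.1 of the macrophage lineage, had 213 per kb. Of the repressors of osteoclast formation, Id2 had 2761 per kb, Irf8 297 and Bcl6 199.7, each above the median of all genes.

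Dcstamp and Ocstamp encode membrane proteins that macrophages need in order to fuse. Dcstamp (ENSMUSG00000022303) spans 39745930 to 39760938 of chromosome 15, plus strand, and Ocstamp (ENSMUSG00000027670) 165393760 to 165400405 of chromosome 2, minus strand. Dcstamp had 18.4 per kb at percentile 33.6 of all genes, and Ocstamp had 3.23 per kb at percentile 19.2, so Dcstamp was 5.70 times as abundant. Their coding sequences were identical at 56.7% of 1336 aligned bases with no identical stretch over 9 bases. All 31-base words of the longest Dcstamp transcript were its own, against 94.3% of those of Ocstamp, whose longest stretch of shared words, 93 bases, lies outside its coding part and has at least 1 word in common with each of 1796 other genes. Of 11 other genes of cell fusion and of the fusing cell surface, 9 lay above the median of all genes. Cd81, a tetraspanin, was the highest with 10378 per kb. Sirpa and its ligand Cd47 had 2475 and 648 per kb, and Cd9 had 4008. Adam12, a metalloprotease, had 9.51 and Mymk, the fusion protein of muscle precursors, was the lowest with 1.17, so both lay below Dcstamp and Mymk also below Ocstamp.

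Oscar encodes a collagen-binding receptor that signals through the adaptor FcRγ (Fcer1g), and Calcr the receptor through which calcitonin stops resorption. Oscar (ENSMUSG00000054594) spans 3609813 to 3616157 of chromosome 7 and Calcr (ENSMUSG00000023964) 3685680 to 3764714 of chromosome 6, both on the minus strand, and the microRNA genes Mir653 and Mir489 lie within Calcr. Both receptors were near the bottom of the range, Oscar at percentile 18.9 and Calcr at percentile 18.4. The adaptors were abundant, with 1157 per kb for Fcer1g and 9399 for Tyrobp, which are 370 and 3009 times the level of Oscar. Trem2, a lipid receptor that uses Tyrobp, had 883 per kb, and Btk was the lowest gene of that list with 44.7. Of the other leukocyte and platelet receptor genes listed with Oscar, Lilrb4a had 467 and Lilra5 132 per kb, and Tarm1 and Gp6 had 0.421 and 0.342. Calcrl, the related receptor for adrenomedullin and CGRP, had 752 per kb, 257 times the level of Calcr. Ramp2 was the highest of the calcitonin family with 2033 per kb, and Ramp1 and Ramp3 had 624 and 587. Of the ligand genes, Adm, which encodes adrenomedullin, had 272 per kb, above the median of all genes. Calca, Calcb and Iapp had 23.9, 1.55 and 0.192.

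**Figure D3:**
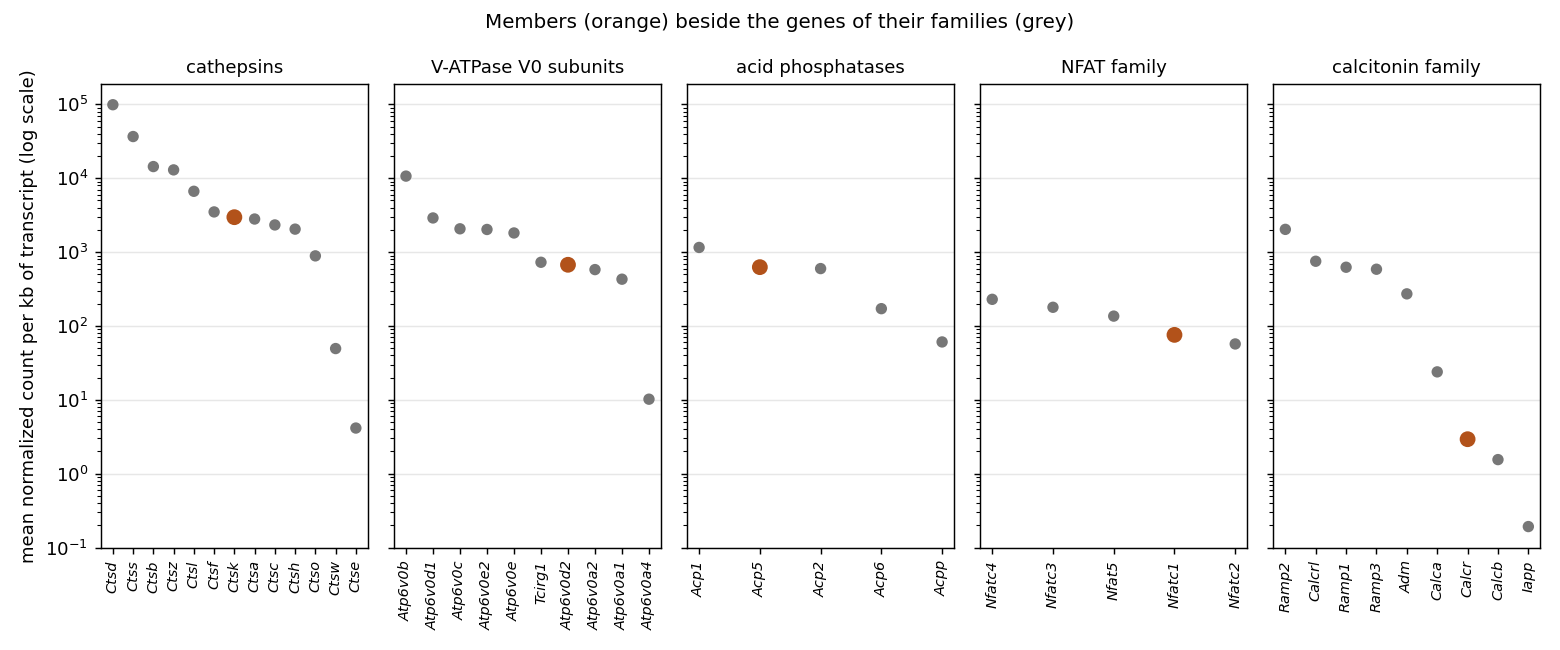
Each panel is 1 gene family and each point 1 gene, ordered from the highest to the lowest mean normalized count per kb of transcript on a log y axis shared by the panels, with the genes of the list in orange and their relatives in grey. Ctsk sits at place 7 of 13 cathepsins, Atp6v0d2 at place 7 of 10 subunits, Acp5 at place 2 of 5, Nfatc1 at place 4 of 5 and Calcr at place 7 of 9.

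For the scarcest genes the mean could be taken apart into whole reads. Means of genes with few reads were whole multiples of 6 step sizes, 1 for each library, between 0.157 and 0.174. Of the 2159 distinct means under 3.5, 1500 spread over the range were tried. All 1500 were given by exactly 1 set of whole reads within the rounding of the print and the error of the steps. The steps were fitted to low means that had 1 such set, so this is not an independent check of them. The steps give size factors between 0.959 and 1.06, a ratio of 1.11, and which library belongs to which mouse or age is not known, so the libraries are lettered from the highest size factor to the lowest and were not compared as groups. Oscar had 35 reads in all. They were 8 in library a, 14 in b, 6 in c, 0 in d, 6 in e and 1 in f. If each read is an independent count, 0 reads allow up to 3. Even numbers of reads were common, as given below, so this limit may be too low. For the higher mean of Calcr, too, only 1 set was found, of 66 reads, with 6 in library a, 12 in b, 8 in c, 20 in d, 10 in e and 10 in f. The most reads of Oscar and of Calcr thus came from different libraries, and library d, with the most reads of Calcr, had none of Oscar. Recovery at a total as high as that of Calcr was not tested. The reads are few, and whether these receptors vary apart between libraries was not tested. Ocstamp was fitted by 3 sets of 71 or 72 reads and was not resolved, and the means of the other 5 genes are too high for this.

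**Figure D4:**
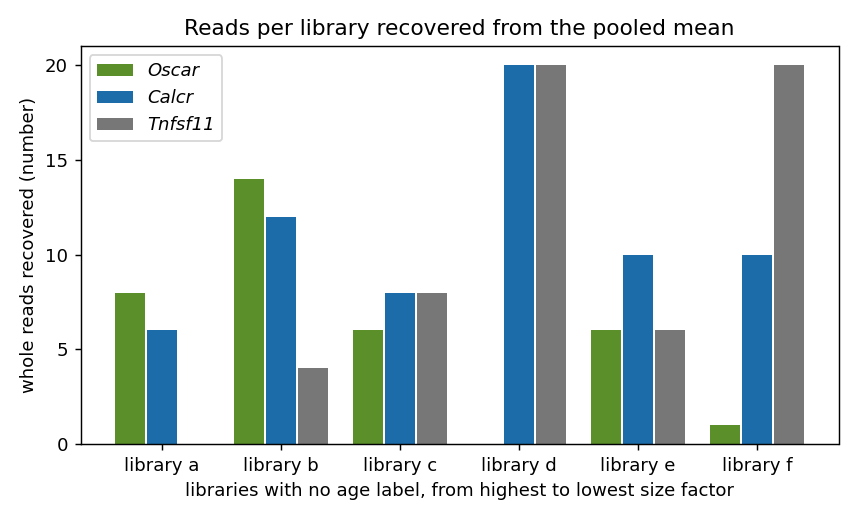
Bars give the number of whole reads recovered from the pooled mean for Oscar, Calcr and Tnfsf11 in each of the 6 libraries, which carry no age label here and run from the highest to the lowest size factor. Oscar ranges from 0 to 14 reads, Calcr from 6 to 20 and Tnfsf11 from 0 to 20. Recovery at totals as high as those of Calcr and Tnfsf11 was not tested.

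The genes of the signals upstream also differed in level. Csf1r, the receptor that macrophages and osteoclast precursors need for survival, had 1217 per kb, and its ligands Csf1 and Il34 had 266 and 252. Tnfrsf11a, which encodes RANK, had 41.0 per kb, and Csf1r was 29.6 times as abundant. Tnfsf11, which encodes RANKL, had 4.41 per kb, and Tnfrsf11b, the decoy receptor osteoprotegerin that binds RANKL, had 363, which is 82.4 times as much. Tnfsf11 had 58 reads, with 0 in library a, 4 in b, 8 in c, 20 in d, 6 in e and 20 in f. Traf6, the adaptor of RANK, had 103 per kb. Among 11 resorption genes 8 lay above the median of all genes, and Itgav, an integrin chain of many cells, was the highest with 2426 per kb. Mmp9, a gelatinase of osteoclasts and neutrophils, was the lowest with 35.3, Plekhm1 had 38.7, and Itgb3, the partner of Itgav in osteoclasts, had 77.7. Car2, Clcn7 and Ostm1, which supply and balance the acid, had 2057, 1027 and 1663 per kb and are used by other cells, RPE included.

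RefSeq promoters were read for 4 of the 8 genes, Ctsk, Acp5, Oscar and Calcr. Those of Ctsk and Oscar are shown because they belong to the most abundant gene and to 1 of the scarcest genes among these. The 250 bases before the start are given 5′ to 3′ on the gene's strand in GRCm38.p6. Capitals mark, on either strand, the letters GGAAA (the core bound by NFAT proteins), GAGGAA (bound by PU.1), and CACGTG and CATGTG (bound by MITF and its relatives), where GAGGAA followed by A also holds GGAAA. Ctsk, on the plus strand, holds GAGGAA 2 times and the other letters 0 times. Oscar, on the minus strand, holds GGAAA 3 times, GAGGAA 1 time, CATGTG 1 time and CACGTG 0 times. Among 32851 promoter windows of the same length, 55.6% hold GGAAA, 23.3% GAGGAA, 12.3% CATGTG and 6.02% CACGTG. A match describes letters only.

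Ctsk chr3:95498960-95499209: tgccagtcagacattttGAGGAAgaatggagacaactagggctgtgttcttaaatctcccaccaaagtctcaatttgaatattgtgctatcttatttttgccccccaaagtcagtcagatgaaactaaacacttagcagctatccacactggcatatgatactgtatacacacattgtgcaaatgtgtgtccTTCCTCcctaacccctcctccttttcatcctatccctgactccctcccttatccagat
Oscar chr7:3616158-3616407: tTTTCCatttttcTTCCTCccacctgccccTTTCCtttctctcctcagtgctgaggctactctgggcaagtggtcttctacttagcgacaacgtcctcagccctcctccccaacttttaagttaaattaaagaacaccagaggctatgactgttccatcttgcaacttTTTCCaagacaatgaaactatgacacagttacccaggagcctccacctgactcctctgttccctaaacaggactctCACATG

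Markers of cell types were checked beside the 8 genes. Of 8 RPE markers 7 lay above the median of all genes, up to 335233 per kb for Ttr, and Best1 was low with 39.3. All 11 macrophage markers lay above the median, between 296 per kb for Itgam and 92625 for Lyz2. All markers of melanocytes, fibroblasts, endothelium and skeletal muscle also did, 6 in each list, with Dct, Dcn, Plvap and Mylpf the highest at 74294, 18042, 1909 and 54081 per kb. Sox10 was the lowest of the melanocyte list with 452 per kb. Whether the melanocyte markers came from melanocytes or from the RPE was not tested. The study's methods describe muscles as cut away from the eyes. Of 9 bone markers 6 lay below the median. Ibsp had 2 reads and Bglap 10 reads over the 6 libraries, and Dmp1 had 2.04 and Bglap2 4.89 per kb. Sp7 and Runx2 were higher, with 55.48 and 18.04 per kb. Both lay above Ocstamp, Oscar and Calcr, and Sp7 also lay above Dcstamp. The 3 bone markers above the median were Spp1 with 12082 per kb, Alpl with 938 and Sost with 112. The part of these cell types in the levels of the 8 genes was not tested.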

How the data were processed

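The authors sequenced RNA from RPE/choroid of 6 mice, 3 per age. Their methods name BBDuk for trimming, STAR for mapping against Ensembl transcripts of GRCm38, Sailfish for quantification and scaling to total counts. The signal used here is the mean normalized count in the authors' deposited table, averaged by the authors over all 6 libraries, with 1 value per gene. The other 5 columns of values hold the authors' own DESeq2 comparison of the ages (fold change, its error, statistic, p-value and adjusted p-value) and were not used. The planned edgeR comparison of the ages was not run, as the table holds no values per library. The means add up to 40816668, and the depth of single libraries is unknown.

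The 8 genes and the 21 lists of related and marker genes were chosen with earlier results of these data known. All 8 genes were named, and from the lists their relatives, the highest and lowest gene, and genes of the CSF1 and RANK signals. Genes named beyond this were chosen after their values were seen. The photoreceptor list and 1 gene of the repressor list are not reported here. Older symbols were matched through RefSeq synonyms. Levels were divided by the longest transcript in kb from GENCODE M21 (GRCm38), which had a length for 94.4% of the 25517 genes with a mean above 0, and whose gene models may differ from those of the authors. Words of 31 bases of its transcripts were compared on both strands. Whole reads per library were recovered by listing all sets of whole numbers that give a printed mean. This was tested on simulated data, but not for totals as high as those of Calcr, Tnfsf11 and Ctse, with 66, 58 and 53 reads. Whether the single sets found for Calcr, Tnfsf11 and Ctse are the true reads was not tested. Reads are the units of the deposited counts, and whether the mates of a pair were counted apart is not given in the sources used here. No test was made, and counting error is the only error that the 0 limit covers, with each read taken as independent. Python 3.11.15 with numpy 2.4.6, pandas 2.3.3, Biopython 1.88 and matplotlib 3.10.9 was used.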

Additional observations from a re-analysis of the deposited data

How the results depend on the processing

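With a threshold of 50 or of 100 on the mean normalized count, 4 of the 8 genes remained in place of 7 at 10, and with a threshold of 1 all 8 did. Ordered by mean normalized count, 2 genes changed place, Oscar and Calcr, and per kb of the shortest protein-coding transcript, chosen after seeing the data, 3 did, Ocstamp, Oscar and Calcr. With that transcript Calcr had 5.34 per kb in place of 2.93, as its length is 2064 in place of 3763 bases. The other members with more than 1 length, Acp5, Nfatc1, Dcstamp and Oscar, moved by less than 1.5 times. A second length was tried only for the 8 genes. Places and ratios within the families therefore rest on the longest transcript of each relative. Ranked among the 17973 genes with a mean of at least 10 and a known length, Nfatc1 stood at percentile 29.97 and Dcstamp at 11.9, and Ocstamp, Oscar and Calcr below 1, as the filter removes lower genes.

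No paired analysis was possible because single mice have no values of their own in these data. The planned fits with edgeR and DESeq2, their filters and size factors, leaving out each replicate and the replicate block were therefore not run. How far the 8 genes vary between the ages is not limited by anything measured here. Between libraries, only the reads recovered for Oscar give a spread, and those of Calcr if its set is the true one. The reads of Ocstamp were not resolved.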

Other observations

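Even numbers of reads were common in single libraries. Among the 5387 counts above 0 recovered from 1500 low means, 67.3% were even, with 1963 counts of 2 against 886 counts of 1, and 981 counts of 4 against 481 of 3. For Calcr all 6 counts were even, and for Oscar 5 of 6 with the 0 included. The cause was not tested.

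The 3 sets of reads that fit the mean of Ocstamp are, from library a to f, 8, 14, 12, 14, 20 and 3 reads, or 23, 14, 8, 14, 7 and 6 reads, or 5, 40, 8, 8, 10 and 1 reads. Each has at least 1 read in every library. Tarm1, another leukocyte receptor gene, had 4 reads in all, each of them in library b. Ctse, the scarcest cathepsin, was given by 1 set of 53 reads, between 5 and 14 in each library, and recovery at this total was not tested. Dmp1, a gene of bone and tooth matrix, had 34 reads, of which library b held 12. None of these counts can be tied to an age.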
